A study of Drosophila melanogaster with 8 samples.

Results

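The 10 genes described here encode the voltage-gated sodium and calcium channels of the fly, their auxiliary subunits, a sodium leak channel with a partner protein, and a hyperpolarization-activated channel. They were chosen by symbol from the deposited table, and all 10 were found among its 16727 genes. RNA was sequenced from whole heads of 7-d-old female flies in the w1118 background that carried a UAS transgene of 36 G4C2 repeats, the expansion found in C9orf72 ALS/FTD, together with the driver elavGS. Induced flies were fed 200 µM RU486 for 5 d, and uninduced flies of the same genotype were fed the ethanol vehicle. There were 4 libraries per group, each from 15 heads. elavGS is a Gal4 made active by RU486 and expressed in neurons, so the repeat was driven in neurons while the RNA came from all cells of the head. No library came from flies given RU486 without the repeat, so effects of the drug and of the repeat cannot be told apart. In whole heads, more cells of a type and more RNA per cell cannot be told apart either. The labels call the 4 libraries of a group biological replicates.

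Voltage-gated channels open when the membrane depolarizes. para is the principal voltage-gated sodium channel of fly neurons and carries the rising phase of the action potential. The pore subunits of calcium channels are cac, of the presynaptic CaV2 type, which admits the calcium that triggers transmitter release, Ca-alpha1D, of the L-type, found in muscle and in neuronal cell bodies and dendrites, and Ca-alpha1T, of the T-type, which opens at low voltage. Ca-beta and stj, an alpha2delta protein, are auxiliary subunits that bring pore subunits to the membrane and tune their gating. tipE does the same for para. na is the fly counterpart of the sodium leak channel NALCN, which sets the resting potential, and unc79 is part of its complex. Ih is the fly HCN channel, a cation channel opened by hyperpolarization.

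Library totals ranged from 13421396 to 14962813 counts in induced heads and from 13247282 to 14192723 in uninduced heads. TMM factors, computed with edgeR, were 1.04 to 1.08 in induced and 0.913 to 0.954 in uninduced libraries, so the choice of scaling bears on small differences. Levels are given in CPM, counts divided by the TMM-scaled library size and set to a common total. The channel genes had between 256 and 9025 counts in every library. Counts were lowest for tipE, at 256 to 523, so relative counting error was largest for it. In uninduced heads, replicate 4 stood furthest from its group over all expressed genes, at a root mean square distance of 0.209 on the log2 scale against 0.160 to 0.182 for the other 3, and it was the lowest uninduced library for 8 of the 10 channel genes. Without replicate 4 of either group, the same number of channel genes, 7, was called higher.

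Of the 10 channel genes, 7 were higher and 0 were lower in induced heads by the quasi-likelihood test of edgeR, with 0.05 as the limit on the adjusted p. Among all 9905 genes tested, 17.7% were called higher and 18.8% lower, 36.5% in all. The median log2 fold change of the 10 genes was 0.27, against 0.0011 for all genes tested. The genes called were Ca-alpha1T, stj, Ca-beta, Ih, na, unc79 and cac, in falling order of log2 fold change. The sodium channel para and the L-type channel Ca-alpha1D did not pass, and neither did tipE. For 8 genes, the 7 called and tipE, every induced library was above every uninduced library, where 18.1% of all genes tested were separated in this direction and 17.9% in the other.

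**Figure D1:**
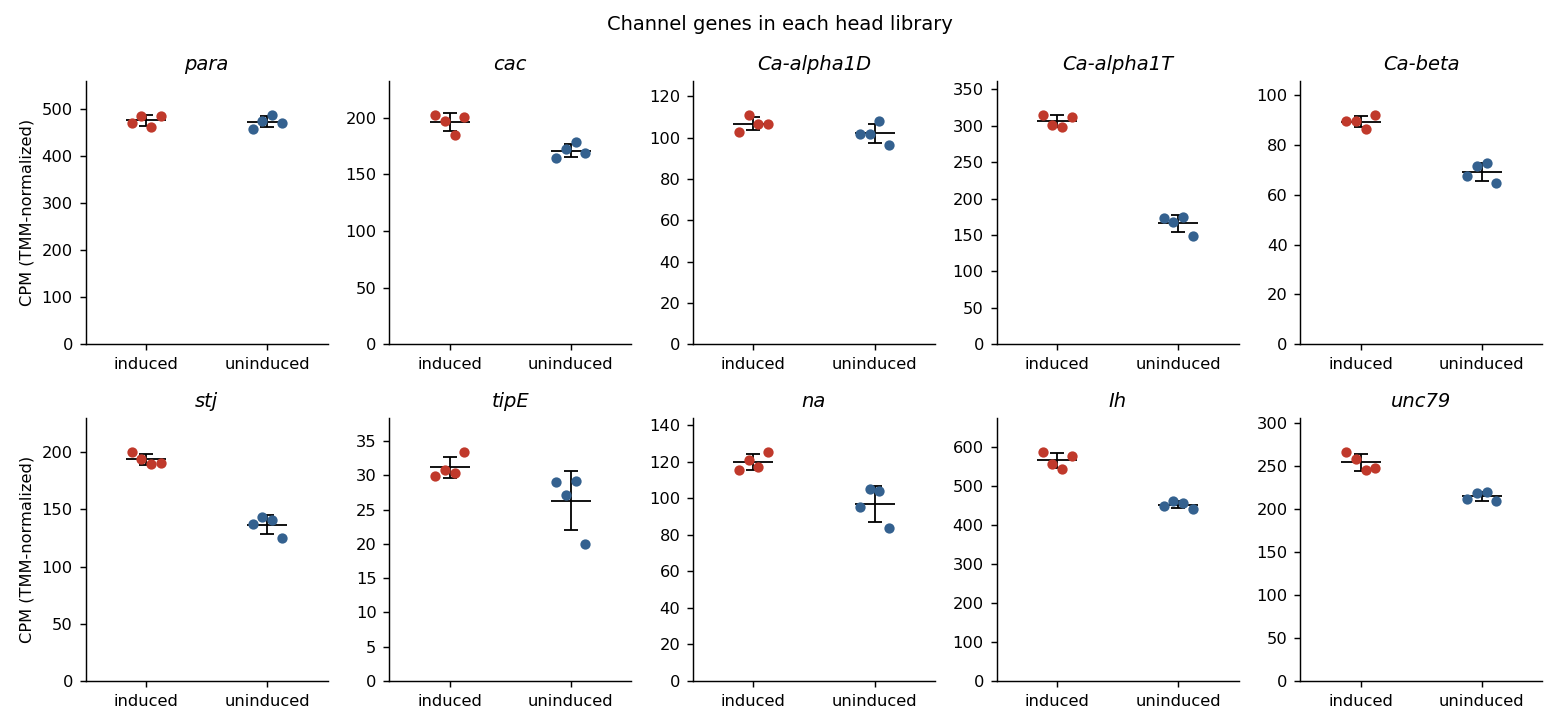
Normalized CPM (y axes, each starting at 0) of the 10 channel genes in induced and uninduced heads, with a point for each library and a line and bars for the mean and SD of 4 libraries. The groups are apart for 8 genes and overlap for para and Ca-alpha1D, and uninduced replicate 4 of tipE lies low, at 19.9 CPM.

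para, on the minus strand of chromosome X from 16455027 to 16533096 (dm6 coordinates here and below), had 470.2, 487, 463 and 485 CPM in induced heads and 459, 476, 487 and 470.1 CPM in uninduced heads. The groups lay on top of each other, and no library of either group was more than a few percent from the mean. The means were 476 ± 11.6 CPM in induced and 473 ± 11.7 CPM in uninduced heads (SD, n = 4 each). The log2 fold change was 0.0096 with a standard error of 0.043 (adjusted p = 0.886). Its approximate 95% interval, from the standard error, ran from -0.08 to 0.09. A difference in para larger than this interval was thus not seen under TMM scaling, at a depth of 6044 to 7593 counts per library.

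Scaling moved para more than replicate error did. Scaled to library totals only, its log2 fold change was 0.19 (adjusted p = 0.0071), where the median of all genes tested also moved to 0.18 and 45.3% of them were called higher. Scaled to the geometric mean of 14 neuronal marker genes, it was -0.051 (adjusted p = 0.420). A change of scaling moves all genes by about the same amount, so the place of para near the middle of them was carried over. No direction can be given for para.

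tipE, on chromosome 3L from 4188499 to 4193788, had the fewest counts of the 10 genes. Its levels were 30.0, 30.8, 30.4 and 33.4 CPM in induced heads, against 29.0, 27.2, 29.2 and 19.9 CPM in uninduced heads. All induced libraries were higher, but 3 of the uninduced libraries lay close below them and replicate 4 lay far below. The log2 fold change of 0.24 (standard error 0.10) did not pass the test (adjusted p = 0.0663), and without uninduced replicate 4 it was 0.14 (adjusted p = 0.0854). The count ratio of tipE to para, which does not depend on the scaling, averaged 0.0654 ± 0.0025 in induced and 0.0556 ± 0.0092 in uninduced heads (SD, n = 4 each), a log2 difference of 0.25 (two-sided exact permutation test, adjusted p = 0.0381 over 8 ratios). This difference was 0.12 without uninduced replicate 4. Exons of tipE share 777 bp with CG18675 on the same strand, and CG18675 had at most 2 counts in any library.

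The 4 homologs of tipE, called Teh1 to Teh4, encode proteins related to it, and NaCP60E encodes a channel related to para. All 5 were higher in induced heads, where 17.7% of all genes tested were called in this direction. Of these, Teh2, Teh3 and Teh4 lie next to tipE on chromosome 3L, from 4174859 to 4188023. The log2 fold change was 0.51 for Teh1 (standard error 0.07, adjusted p = 5.3e-05), 0.33 for Teh2, 0.41 for Teh3, 0.19 for Teh4 and 0.22 for NaCP60E. Per kb of exon Teh2 was the most abundant of the 4 homologs, and it had 150.1 ± 3.99 CPM in induced and 119.5 ± 5.35 CPM in uninduced heads (SD, n = 4 each). Teh3 had only 8.52 ± 1.07 CPM in induced and 6.42 ± 0.78 CPM in uninduced heads, its groups overlapped, and 229 bp of its exons are shared with Teh2. Without replicate 4 of either group, 3 of the 5 genes were called higher. Summed without correction for exon length, the 5 genes had 461 to 483 CPM in induced and 369.8 to 404 CPM in uninduced heads. NaCP60E, itself a channel, was the largest part of this sum, at 252 ± 6.03 CPM in induced and 215.7 ± 9.62 CPM in uninduced heads (SD, n = 4 each). para differed by 0.67%.

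Of 7 genes known to act on the para transcript or on its translation, 0 were higher and 1 was lower, where 17.7% of all genes tested were higher and 18.8% lower, so the count of lower genes was near the background. The gene was pum, an RNA-binding protein that represses translation of para, at 150.1 ± 9.31 CPM in induced and 174.7 ± 5.73 CPM in uninduced heads (log2 fold change -0.22 ± 0.05 SE, adjusted p = 0.0035). mle, a helicase needed for correct splicing of para, and Adar, the editing enzyme that acts on it, had log2 fold changes of 0.09 and 0.06 (adjusted p = 0.145 and 0.433). The call on pum was lost when libraries were scaled to their totals. Under this scaling 0 of the 7 genes were lower and 4 were higher, beside 8.82% and 45.3% of all genes tested.

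Among the calcium channel pores, Ca-alpha1T stood furthest apart between the groups. It lies on the minus strand of chromosome X from 6104085 to 6192483 and had 314, 300.6, 299 and 313 CPM in induced heads, against 173, 168, 174 and 149 CPM in uninduced heads. The lowest induced library was well above the highest uninduced library. The log2 fold change was 0.88 (standard error 0.05, adjusted p = 1.9e-08), an increase of 84.5%, which placed Ca-alpha1T at position 209 among the 9905 genes tested, ordered from the largest rise. Over all alternatives it stayed between 0.83 and 1.06.

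cac, the presynaptic channel, lies on the minus strand of chromosome X from 11931280 to 11985087. It had 202, 197, 185 and 200.4 CPM in induced heads and 165, 172, 178 and 168 CPM in uninduced heads. Induced replicate 3, the lowest of its group, was above uninduced replicate 3, the highest of its group, by a small margin. The log2 fold change was 0.20 (standard error 0.05, adjusted p = 0.0036), and it was 0.14 (adjusted p = 0.0358) when scaled to neuronal markers.

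Ca-alpha1D, on the plus strand of chromosome 2L from 16165831 to 16190540, had 103, 111, 106 and 107 CPM in induced heads and 102, 102, 108 and 96.3 CPM in uninduced heads. The groups overlapped. Its log2 fold change was 0.06 (standard error 0.05, adjusted p = 0.302, 95% interval -0.03 to 0.16), and it passed only with library totals as the scaling (0.24, adjusted p = 0.0024). An antisense RNA shares 248 bp with its exons and had at most 11 counts in any library.

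The pores were also compared with each other inside each library, where scaling cancels. There were 1.57 ± 0.037 counts of Ca-alpha1T per count of cac in induced heads and 0.973 ± 0.068 in uninduced heads (SD, n = 4 each). This is a log2 difference of 0.69, with no overlap (two-sided exact permutation test, adjusted p = 0.0381 over 8 ratios). cac rose relative to para, with 0.411 ± 0.013 counts per count of para in induced and 0.361 ± 0.0035 in uninduced heads (log2 difference 0.19, exact permutation test, adjusted p = 0.0381). The ratio of Ca-alpha1D to cac, 0.545 ± 0.030 in induced and 0.597 ± 0.020 in uninduced heads, overlapped by a narrow margin and did not pass (log2 difference -0.13, exact permutation test, adjusted p = 0.0653). Divided by exon length, Ca-alpha1T made up 45.8 to 47.2% of the summed level of the 3 pores in induced heads and 32.8 to 35.9% in uninduced heads. The share of cac was 32.0 to 33.4% in induced and 37.6 to 40.7% in uninduced heads. The share of Ca-alpha1D was 19.4 to 21.2% in induced and 26.3 to 26.7% in uninduced heads. The share of Ca-alpha1T was thus higher in every induced library. The 3 shares sum to the whole, so a higher share of Ca-alpha1T lowers those of cac and Ca-alpha1D, neither of which had a lower mean level in CPM in induced heads.

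**Figure D2:**
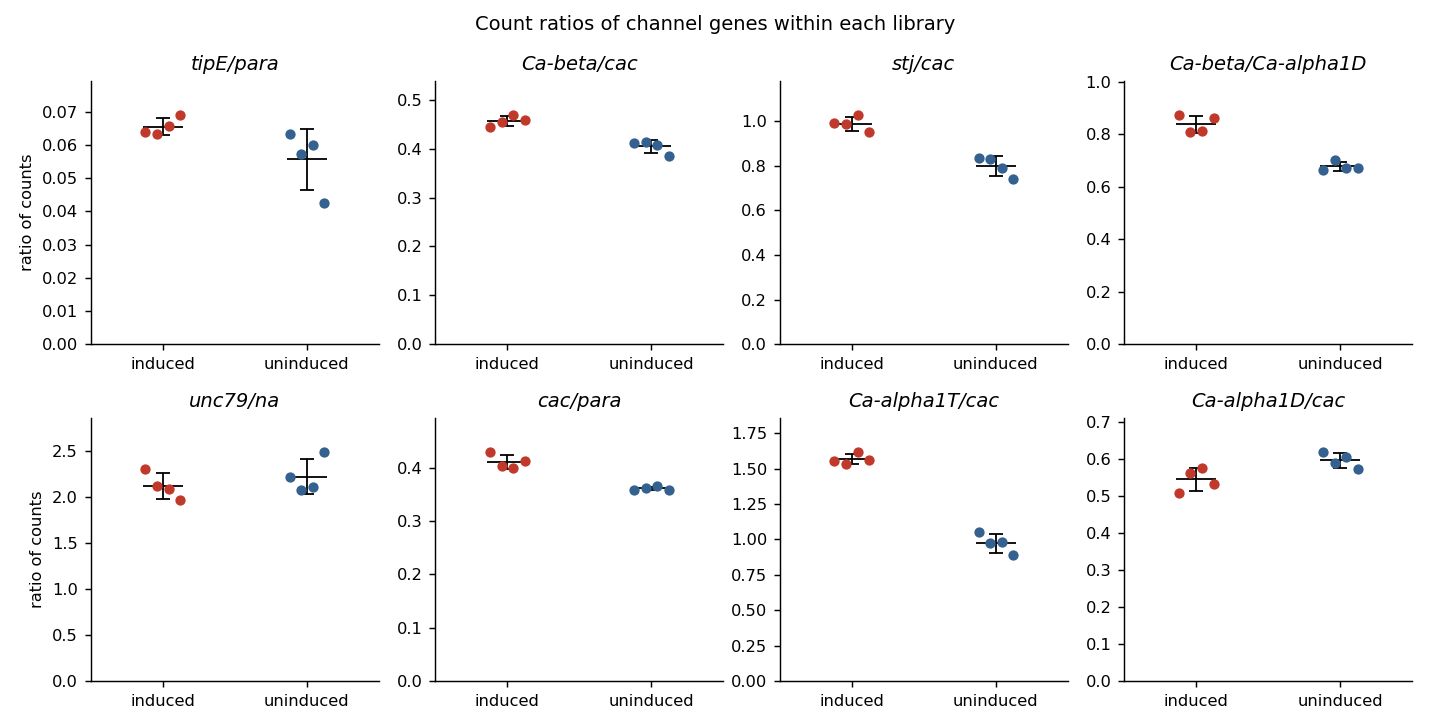
Ratio of the counts of channel gene pairs (y axes, no unit, starting at 0) in induced and uninduced heads, with a point for each library and a line and bars for the mean and SD of 4 libraries. The groups are apart for 6 of the 8 pairs and overlap for unc79/na and Ca-alpha1D/cac. Among single genes tested, 18.1% were separated as higher and 17.9% as lower, and no such share was computed for pairs of genes. Most of the pairs share cac, so they are not independent. Ca-alpha1T/cac shows the widest gap, 1.57 in induced against 0.973 in uninduced heads.

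Both auxiliary subunits of calcium channels rose. stj, on the plus strand of chromosome 2R from 13805794 to 13819571, carries cac to presynaptic terminals. It had 200.03, 194, 190 and 190.4 CPM in induced heads, against 137, 143, 141 and 125 CPM in uninduced heads. Every induced library was higher by a wide margin (log2 fold change 0.50 ± 0.05 SE, adjusted p = 2.5e-06). Ca-beta, on the minus strand of chromosome 2L from 11156118 to 11203544, had 89.7, 89.4, 86.5 and 91.8 CPM in induced heads, against 67.6, 71.5, 72.6 and 64.8 CPM in uninduced heads. Again the groups were clearly apart (log2 fold change 0.37 ± 0.05 SE, adjusted p = 2.9e-05).

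Both subunits rose relative to cac. There were 0.989 ± 0.031 counts of stj per count of cac in induced and 0.799 ± 0.043 in uninduced heads, a log2 difference of 0.31, and 0.456 ± 0.0099 counts of Ca-beta in induced and 0.405 ± 0.013 in uninduced heads, a log2 difference of 0.17 (SD, n = 4 each, two-sided exact permutation tests, adjusted p = 0.0381 for both). Ca-beta also rose relative to Ca-alpha1D (log2 difference 0.31, exact permutation test, adjusted p = 0.0381). The unadjusted p of each of these tests was 0.0286, the smallest that 4 libraries against 4 allow.

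Of 11 other genes of calcium channel regulation, 4 were higher and 1 was lower, with a median log2 fold change of 0.12, where 17.7% of all genes tested were called higher and 18.8% lower. CASK, a scaffold protein of the synapse, had 181.5 ± 4.97 CPM in induced and 102 ± 5.78 CPM in uninduced heads (log2 fold change 0.83, adjusted p = 1.5e-08), with 2669 bp of its exons shared with the noncoding gene CRG. Rbp, the RIM-binding protein that ties cac to the release machinery, had 205 ± 5.63 CPM in induced and 145.1 ± 11.4 CPM in uninduced heads (log2 fold change 0.50, adjusted p = 8.2e-06). Rgk3, of a GTPase family that inhibits calcium channels in vertebrates, rose by a log2 fold change of 0.26, and CG4587, a relative of stj, by 0.21. Cam, calmodulin, was lower (-0.20, adjusted p = 0.0056). Rim, CaMKII, Rgk1, Rgk2 and the other alpha2delta relatives CG16868 and Ca-Ma2d did not pass, with log2 fold changes from -0.04 to 0.14. The decrease of Cam was lost when libraries were scaled to their totals. Under this scaling 9 of the 11 genes were higher and 0 lower, beside 45.3% and 8.82% of all genes tested.

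**Figure D3:**
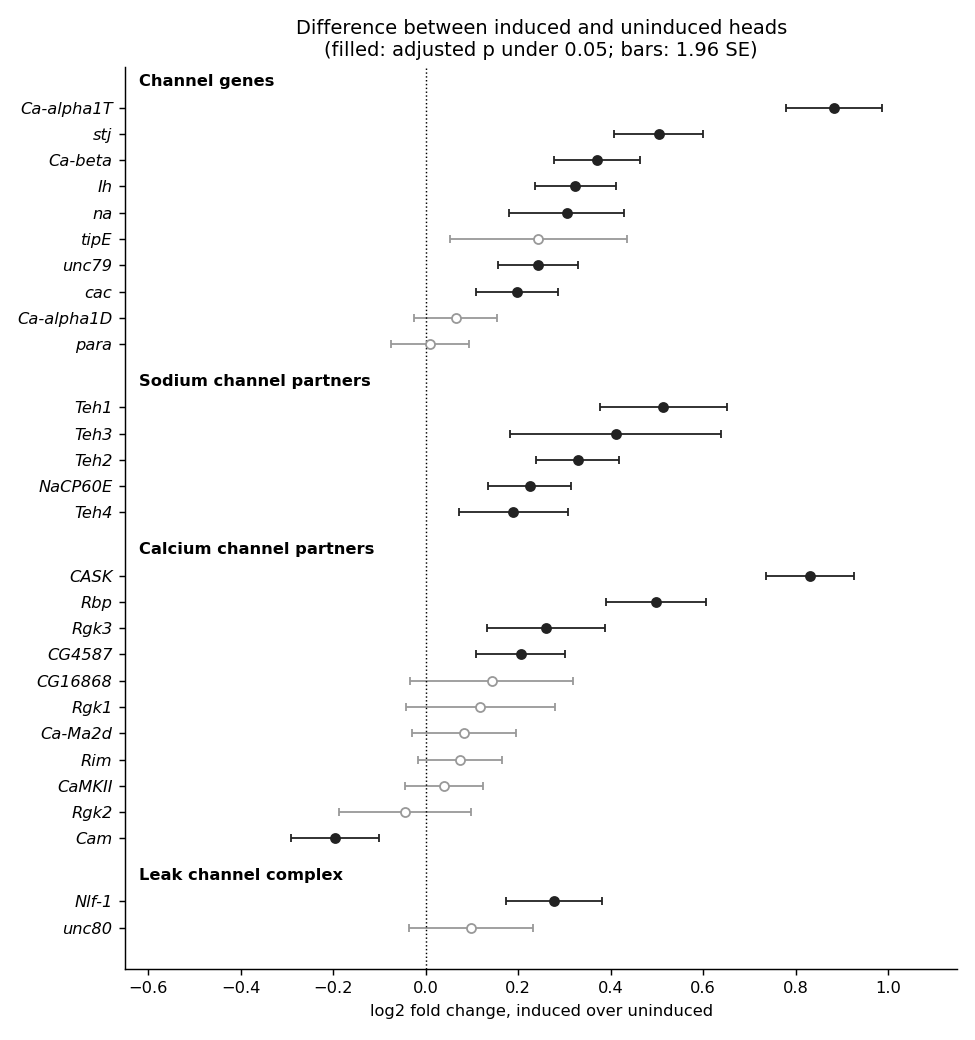
Log2 fold change, induced over uninduced (x axis), of the 10 channel genes and of genes for their partners (rows), with bars for the approximate 95% interval and filled points for an adjusted p under 0.05. Ca-alpha1T (0.88) and CASK (0.83) lie furthest to the right, para (0.0096) lies at 0, and Cam (-0.20) is the only filled point to the left.

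The leak channel na and its partner unc79 rose by similar amounts. na, on the plus strand of chromosome X from 14266367 to 14277416, had 115.4, 121, 117 and 125 CPM in induced heads, against 95.2, 105, 104 and 83.9 CPM in uninduced heads (log2 fold change 0.30 ± 0.06 SE, adjusted p = 0.0018). unc79, on the minus strand of chromosome 3R from 19230764 to 19246130, had 266, 257, 245 and 247 CPM in induced heads, against 211, 218, 219 and 209 CPM in uninduced heads (log2 fold change 0.24 ± 0.04 SE, adjusted p = 6.0e-04). All induced libraries were above all uninduced libraries for both genes, and 69 bp of the exons of unc79 are shared with Polr2M on the opposite strand. The ratio of unc79 to na was 2.12 ± 0.14 in induced and 2.22 ± 0.19 in uninduced heads (SD, n = 4 each), and these overlapped (log2 difference -0.07, two-sided exact permutation test, adjusted p = 0.457). Of the other genes of this complex, Nlf-1, listed as Mid1 and needed to place na in axons, was higher (0.28, adjusted p = 9.2e-04), and unc80, a further subunit, was 0.10 on the same scale (adjusted p = 0.286).

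Ih had the highest level per kb of exon of the 10 genes. It lies on the plus strand of chromosome 2R from 14276130 to 14300095 and had 588, 557, 544 and 576 CPM in induced heads, against 449, 463, 457 and 441 CPM in uninduced heads. The groups were widely separated (log2 fold change 0.32 ± 0.04 SE, adjusted p = 6.4e-05).

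Levels of different genes were compared per kb of exon, since exons summed to between 4084 and 16309 bp. This length counts every annotated transcript, of which para alone has 60, so that levels of genes with many variants are understated. In induced heads, the order was Ih (44.5 ± 1.53 CPM per kb), stj (30.9 ± 0.76), para (29.2 ± 0.71), unc79 (24.9 ± 0.95), Ca-alpha1T (23.3 ± 0.61), cac (16.4 ± 0.65), na (15.2 ± 0.56), Ca-beta (10.7 ± 0.26), Ca-alpha1D (10.2 ± 0.31) and tipE (7.63 ± 0.38). The ranges of cac and na overlapped, as did those of Ca-beta and Ca-alpha1D, and those of the other neighbours did not. In uninduced heads, the order was Ih (35.6 ± 0.75 CPM per kb), para (29.0 ± 0.72), stj (21.8 ± 1.31), unc79 (21.1 ± 0.49), cac (14.3 ± 0.48), Ca-alpha1T (12.6 ± 0.89), na (12.3 ± 1.25), Ca-alpha1D (9.73 ± 0.45), Ca-beta (8.27 ± 0.43) and tipE (6.44 ± 1.07). Here stj overlapped with unc79 and Ca-alpha1T with na. The level of stj was thus above that of para in induced heads and below it in uninduced heads, and Ca-alpha1T stood above cac in induced heads and below it in uninduced heads.

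**Figure D4:**
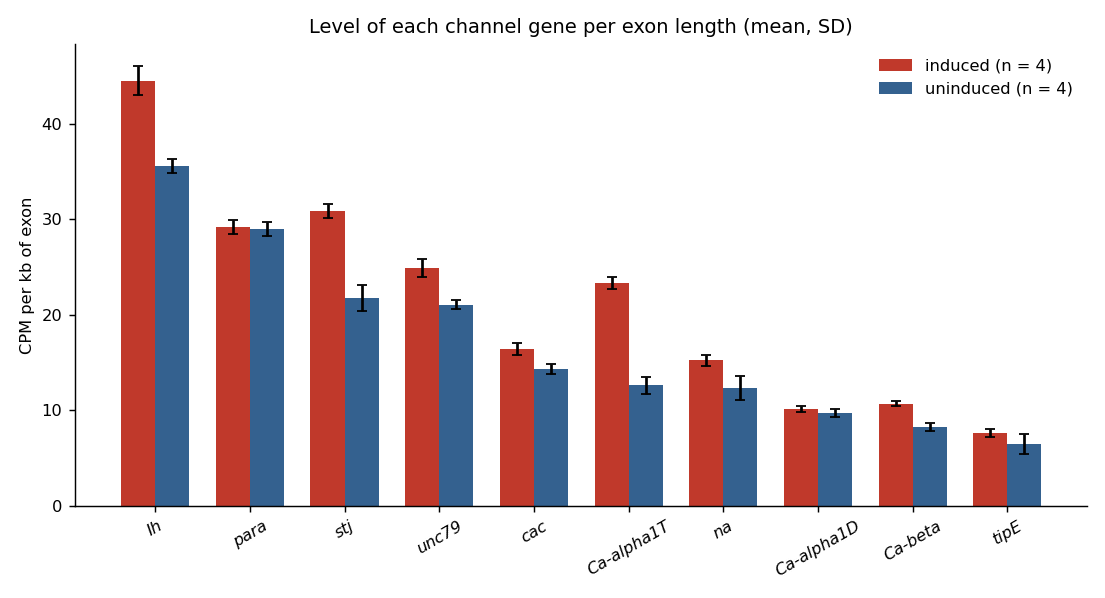
Mean level in CPM per kb of exon (y axis, starting at 0) of the 10 channel genes in induced (red, left) and uninduced heads (blue, right), with bars for the SD of 4 libraries. Genes are ordered by their level in uninduced heads. Ih is highest in both groups (44.5 and 35.6), and Ca-alpha1T, at 23.3 in induced and 12.6 in uninduced heads, shows the largest gap relative to its level.

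Each of the 7 calls was kept when libraries were scaled to the neuronal markers, with log2 fold changes from 0.14 for cac to 0.83 for Ca-alpha1T, where 11.9% of all genes tested were called higher and 22.9% lower. With library totals as the scaling, all 10 channel genes were called higher, where 45.3% of all genes were called higher and 8.82% lower. The neuronal markers themselves were divided, with 3 of 14 higher, 4 lower (2 without induced replicate 1 or 3 or without uninduced replicate 2 or 3) and a median log2 fold change of 0.02. Their summed level was 4283 to 4546 CPM in induced and 3920 to 4337 CPM in uninduced heads. Of these markers futsch had the largest log2 fold change, 0.71, at 567 ± 30.1 CPM in induced and 346 ± 17.5 CPM in uninduced heads (SD, n = 4 each). It was part of the scaling to neuronal markers, which was not repeated without it. Among all genes tested, 17.7% were called higher and 18.8% lower under TMM.

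**Figure D5:**
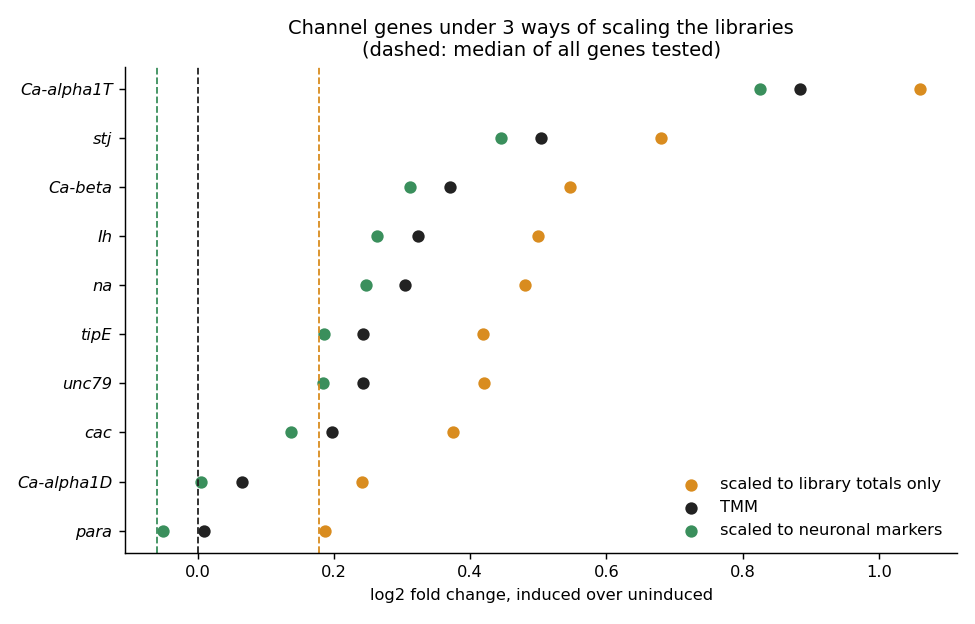
Log2 fold change, induced over uninduced (x axis), of the 10 channel genes (rows) with libraries scaled by TMM (black), to library totals only (orange) and to neuronal marker genes (green), with dashed lines at the median of all genes tested. Each gene is shifted by about the same amount between scalings, and para lies beside the median of all genes in each, at 0.19 against 0.18 with library totals only.

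The channel genes have long transcripts, and gene length moved with the direction of change. Of the 1995 genes tested whose exons sum to at least 4084 bp, the length of the shortest of the 10 genes, 26.6% were called higher and 11.9% lower, with a median log2 fold change of 0.06. Of the 3066 genes that span at least 5290 bp, 23.5% were called higher and 16.3% lower. The part of transcript length in the result was not tested.

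Markers of other head cells were set beside the channel genes. Their counts stand against 17.7% called higher and 18.8% called lower among all genes tested. Photoreceptor markers (3 of 13 higher, 0 without induced replicate 4, 1 lower, median log2 fold change 0.02) and muscle markers (1 of 11 tested higher, 0 lower, 0.03) had medians near 0, and their summed levels overlapped between the groups, with 4644 to 5121 CPM in induced and 4482 to 5122 CPM in uninduced heads for muscle. Glial markers were divided, with 3 of 9 higher, 3 lower and a median log2 fold change of 0.03. They summed to 1806 to 1955 CPM in induced and 2075 to 2187 CPM in uninduced heads. Most of this gap lay in Eaat1, at 245 ± 8.74 CPM in induced and 450 ± 4.53 CPM in uninduced heads (SD, n = 4 each). All 7 fat body markers tested were lower, with 89980 to 114810 CPM in induced and 140847 to 152278 CPM in uninduced heads. The part of these shifts in the levels of the channel genes was not tested.

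Sodium and calcium are also moved across membranes by pumps and exchangers. Of 12 such genes, 4 were higher and 1 was lower (2 without uninduced replicate 4), beside 17.7% and 18.8% of all genes tested. Scaled to neuronal markers, 2 were higher and 2 lower, beside 11.9% and 22.9% of all genes tested. With library totals only, 0 were lower, beside 8.82% of all genes tested. Calx, the sodium-calcium exchanger, rose by 0.37 on the log2 scale (adjusted p = 2.2e-05), and the sodium-proton exchangers Nhe3 and Nhe2 by 0.21 and 0.18, though Nhe2 shares 4602 bp of exon with another gene. Of the sodium pump, the beta subunit nrv2 was higher (0.16) and nrv1 lower (-0.19), while the alpha subunit Atpalpha, at 1963 ± 39.7 CPM in induced and 2049 ± 106 CPM in uninduced heads, did not pass (log2 fold change -0.06, adjusted p = 0.386).

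Of 10 other genes of calcium release and entry, 8 were tested. Of these, 3 were higher and 3 lower, beside 17.7% and 18.8% of all genes tested. Trpml was listed at 0 in every library. RyR, the calcium release channel of the endoplasmic reticulum, had 147.2 ± 2.55 CPM in induced and 100.4 ± 8.77 CPM in uninduced heads (log2 fold change 0.55, adjusted p = 4.2e-06). The mechanosensitive channel Piezo (0.44) and Trpm (0.15, adjusted p = 0.0488) also rose. MCU, the pore of the mitochondrial calcium uniporter (-0.36), Stim, the sensor of store-operated calcium entry (-0.18), and the mitochondrial ion exchanger Letm1 (-0.15) were lower. With library totals only, 5 of the 8 genes were higher and 1 was lower, beside 45.3% and 8.82% of all genes tested. The IP3 receptor Itpr and olf186-F, the fly Orai channel, had log2 fold changes of -0.03 and 0.03 and did not pass. Among these 8 genes the median log2 fold change was 0.0038, near that of all genes tested.

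The genes most like para and Ca-alpha1T were looked up by the root mean square distance between levels on the log2 scale over the 8 libraries, each gene centred on its mean, among 9077 genes. This distance takes in the difference between the groups, so the nearest genes have similar fold changes by construction. Nearest to para were ninaE, the main rhodopsin (distance 0.018), CG7781 (0.018) and CG9821 (0.019), all with log2 fold changes between -0.01 and 0.02. Nearest to Ca-alpha1T were Pka-R1, a regulatory subunit of protein kinase A (distance 0.034), the transcription factor gene Xrp1 (0.042) and kat-60L1 (0.043), a katanin-like microtubule-severing gene. Pka-R1 had 348 ± 10.1 CPM in induced and 183 ± 8.66 CPM in uninduced heads, a log2 fold change of 0.93, against 0.88 for Ca-alpha1T.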

How the data were processed

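Polyadenylated RNA from heads was sequenced by the authors as paired-end reads of the KAPA mRNA HyperPrep kit and aligned to Dm6. The deposited values are raw counts per gene and library, not normalized. Which aligner, counter, annotation and strand setting were used is not given in the sources. The deposited table also holds 8 columns of rounded normalized values and the output of the authors' DESeq2 test, neither of which was used.

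The test was the quasi-likelihood test of edgeR 4.0.16 (R 4.3.3) after filterByExpr and TMM, with Benjamini-Hochberg adjustment over 9905 genes. Standard errors were derived from the fold change and its F statistic. Permutation tests were exact and two-sided, on log2 of CPM plus 0.1 or on log2 ratios of counts, and were run with SciPy 1.17.1. The fit was tested on simulated data. The 8 ratios form 1 family of tests. Alternatives were DESeq2 1.42.0, other scalings and filters, the replicate number as a block, and each library left out. The fit without both libraries numbered 4 and the shares among long genes were chosen after seeing the data.

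The 10 channel genes and the gene lists were chosen with earlier results of these data known. Of 105 list names, all were matched, 9 by synonym. The names stac and Tpc1 belong to genes other than those meant, so these 2 were left out. Named are all channel genes, partners past the test (others as counts or with values), and the 3 genes nearest to para and Ca-alpha1T. Coordinates and exon lengths were read from Ensembl gene models (BDGP6, whose coordinates are those of dm6).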

Additional observations from a re-analysis of the deposited data

How the results depend on the processing

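In 17 alternatives, Ca-alpha1T, stj, Ca-beta, Ih, na, unc79 and cac kept their direction and their call, with the highest adjusted p, 0.0358, for cac when scaled to neuronal markers. tipE passed in 4 of them: library totals only (log2 fold change 0.42), no filter on low counts (0.25), without uninduced replicate 1 (0.30) and without uninduced replicate 3 (0.30). para turned to -0.051 when scaled to neuronal markers and to -0.0013 without induced replicate 2 (-0.0013 to 0.032 with each library left out), and passed with library totals only (0.19), as did Ca-alpha1D (0.24). The number of channel genes called higher was 7 to 8 with each library left out. Of all genes tested, 1750 were higher and 1866 lower under TMM, 4488 higher and 874 lower with library totals only, and 1177 higher and 2269 lower when scaled to neuronal markers.

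With library totals only, 9 of the calcium channel partners and 2 of the leak channel complex were called higher. So were 4 of the regulators of para and 5 of the other genes of calcium release and entry. Called lower were 0 calcium channel partners, 0 regulators, 0 pumps and exchangers and 1 gene of calcium release and entry. Among all genes tested, 45.3% were called higher and 8.82% lower under this scaling. Scaled to neuronal markers, 2 regulators of para were lower, as with DESeq2 (2), and 2 pumps and exchangers were higher and 2 lower. Among all genes tested, 11.9% were called higher and 22.9% lower when scaled to neuronal markers. With each library left out, 4 to 5 sodium channel partners were higher and 1 to 2 pumps and exchangers lower. Without replicate 4 of either group, chosen after the data were seen, 3 sodium channel partners were higher and 2 pumps and exchangers lower. The cause of these differences was not tested.

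Libraries of the same number did not deviate together: the correlations of same-numbered libraries were -0.12, -0.03, 0.05 and 0.02 over 9087 genes. With the replicate number as a block, 7 channel genes were higher, as without it, and 1671 genes were called higher in all. An exact sign-flip permutation test of the ratios with this pairing cannot go below p = 0.125.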
